A study of Sus scrofa with 23 samples.

Results

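The genes described here are 41 genes of the amino acid response that runs through the transcription factor ATF4, 20 of them the cytosolic tRNA synthetases. They were listed by symbol, and all 41 were found among the 26687 gene symbols of the pig annotation and passed the filter on low counts. When amino acids run short, uncharged tRNA activates the kinase GCN2, the initiation factor eIF2 is phosphorylated, most translation slows and translation of ATF4 rises. ATF4 then drives genes for amino acid synthesis and import, for charging tRNAs and for feedback on the response itself, and the proximal tubule of the kidney, which takes filtered amino acids back from the urine, is a tissue where amino acid supply is handled in bulk. Much of this control acts on translation, which RNA levels do not show.

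Total RNA was taken from the renal cortex of 23 pigs at birth, and ribosomal RNA was removed before sequencing. Of the libraries, 11 were labelled CFTR-/- (CF), 6 CFTR+/- (HET) and 6 wild-type (WT), and the WT and HET libraries together form the non-CF group (n = 12) that the study set against CF. CFTR is the anion channel lost in cystic fibrosis, and the study asked how its loss affects metabolism in several organs, the kidney and its reabsorption of amino acids among them. Each library came from a pig of its own, all pigs were newborn and no treatment is named. CF pigs came from matings of CFTR+/- carriers, and by genotype the loss is in every tissue, so an effect that starts in the kidney and one that starts elsewhere cannot be told apart. The labels give neither sex nor litter, so those cannot be told apart from the genotype. CFTR RNA was 20.7 CPM (counts scaled to library size) at the median of the libraries labelled CF, 12.1 CPM in those labelled HET and 2.24 CPM in those labelled WT, so it went up with the number of disrupted alleles in the labels. The RNA level therefore goes against a loss of CFTR RNA in the libraries labelled CF, it does not check the loss of the protein, and every CF direction given here rests on the labels. Markers of the proximal tubule summed to between 7684 and 15163 CPM in each library and markers of the adrenal cortex to between 7.34 and 11.97 CPM. In bulk tissue, fewer cells of a type and less RNA per cell cannot be told apart.

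Libraries held 32901281 to 52952273 estimated counts. Pigs numbered 1 to 6 and 12 to 18 (earlier-numbered here, 6 CF and 7 non-CF) lay apart from pigs numbered 7 to 11 and 19 to 23 (later-numbered, 5 CF and 5 non-CF) on a scaling of all genes in an earlier look at these data, and the labels name no batch. Both genotypes are in each series, and values are given within each. CF pig 1, WT pig 12 and HET pig 20 stood apart in FOS, an immediate early gene, with 417, 155 and 61.8 CPM against at most 6.41 CPM in the other 20 libraries, and results were repeated without them.

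Promoter sequence is shown first because 1 motif recurs in it across roles. The composite element bound by ATF4 with a C/EBP partner is written TGATGNAA, and it was searched on both strands from 250 bases before to 50 bases after the start of the transcript that held most of a gene's counts, in the genome Sscrofa11.1. Of the 41 genes, 9 held a match (22%), against 2.87% of 19717 protein-coding genes, and in each of the 9 the match had the letters TGATGCAA, which 0.72% of those genes held. At the annotated gene start instead, 8 of 41 held a match, SESN2 being the one lost, against 3.03% of 20667 genes. Matches in 8 of the genes are printed 5′ to 3′ in the direction of the gene, with the match in capitals.
SESN2, chr6:85324154-85324201, plus strand: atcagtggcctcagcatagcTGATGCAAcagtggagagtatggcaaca
CHAC1, chr1:130363470-130363517, minus strand: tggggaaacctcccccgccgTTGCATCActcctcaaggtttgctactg
FGF21, chr6:54082442-54082489, plus strand: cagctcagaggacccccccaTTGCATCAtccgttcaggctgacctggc
VLDLR, chr1:219210539-219210571, minus strand: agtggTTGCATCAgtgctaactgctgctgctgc
AARS, chr6:13321495-13321542, minus strand: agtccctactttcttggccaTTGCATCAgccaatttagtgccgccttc
CARS, chr2:2163329-2163352, minus strand: ggggcggtggTTGCATCAgattct
TARS, chr16:19455309-19455336, plus strand: cgctttcctaTTGCATCAgctggcacga
YARS, chr6:89118788-89118815, minus strand: cgagctcagcTGATGCAAcctaactgga

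The match lay 59 bases before the start of the main transcript of SESN2, 165 before that of CHAC1, 191 before that of FGF21, 245 before that of VLDLR and 99 before that of AARS. In YARS it lay 51 bases before the start of the main transcript and 33 bases after the annotated gene start, and the stretch printed ends at the edge of the window around the gene start. In CARS and TARS it lay 37 and 26 bases after the start. SLC7A11 held 2 matches, 46 and 27 bases before its start. None of the 5 transcription factors had a match in this window, and the annotated start of CHAC1 is marked as incomplete. A match is a description of the letters, not a binding site, and a window without one says nothing about ATF4.

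Of the 41 genes, 1 passed the test between CF and non-CF: SESN2 was higher in CF. Over all 20921 genes tested, 0.349% passed, 0.244% higher and 0.105% lower in CF. At an unadjusted p under 0.05 stood 4 of the 41 genes (9.76%), SESN2, DDIT4 and CHAC1 higher and VLDLR lower, against 13.7% of all genes, 7.35% higher and 6.36% lower. The median log2 fold change of the 41 genes was -0.00441, with 20 above and 21 below 0, and that of all genes was -0.000517. All values of this comparison are from edgeR's quasi-likelihood test, two-sided, with Benjamini-Hochberg adjustment over all genes tested.

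**Figure D1:**
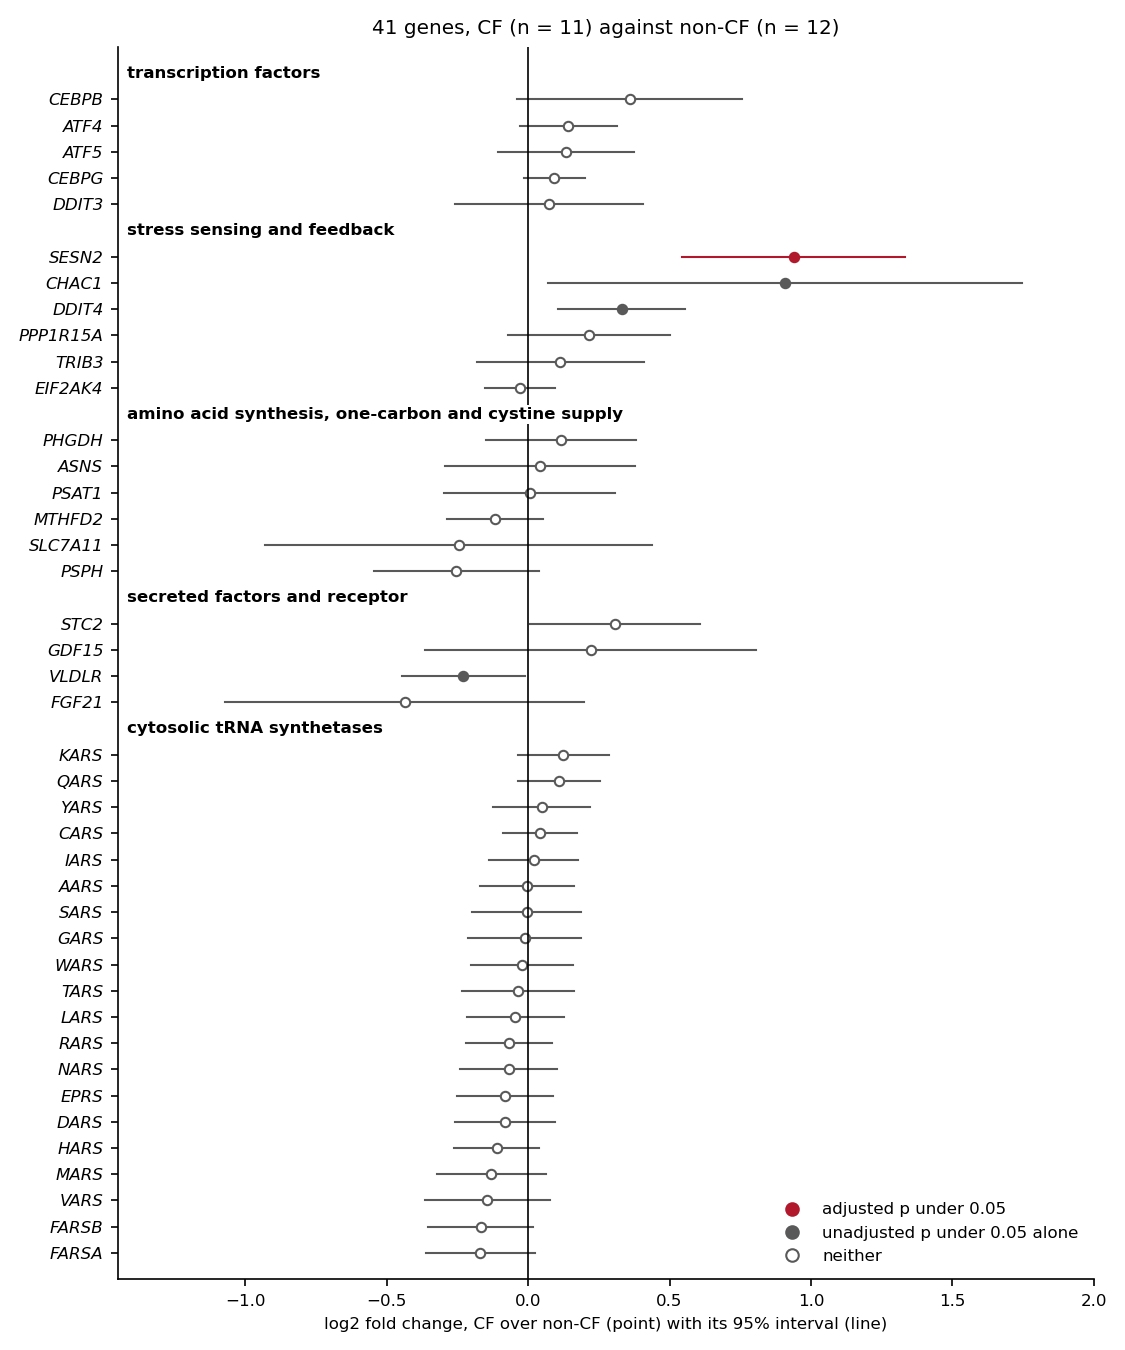
Log2 fold change of each of the 41 genes between CF (n = 11) and non-CF (n = 12) libraries on the horizontal axis, with its 95% interval as a line, grouped by role. SESN2 is the one gene in red, at 0.94, and the intervals of all 20 tRNA synthetases stay within 0.5 of 0.

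Sestrin 2 (SESN2, gene 100620966, chr6:85321982-85348044) is the leucine sensor that restrains mTORC1 and is itself made under ATF4. It measured 66.3, 27.2, 31.1, 29.9, 44.0 and 57.1 CPM in the earlier-numbered CF pigs 1 to 6. In the later-numbered CF pigs 7 to 11 it measured 131, 59.0, 108, 61.4 and 74.6 CPM. The lowest, median and highest non-CF libraries held 27.7, 32.0 and 42.6 CPM. Thus 8 of 11 CF libraries lay above every non-CF library, 5 of them the later-numbered pigs, and the other 3 lay at or near the non-CF values.

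The mean of SESN2 was 62.7 ± 32.5 CPM in CF (SD, n = 11) and 32.7 ± 4.39 CPM in non-CF (SD, n = 12), a difference of 0.94 on the log2 scale (SE 0.20), or 1.92-fold (edgeR, adjusted p = 0.0415). The mean was 34.5 ± 5.25 CPM in HET and 30.8 ± 2.48 CPM in WT libraries (SD, n = 6 each). Against WT alone the difference was 1.03 (edgeR, adjusted p = 0.0682) and against HET alone 0.86 (adjusted p = 0.30), while HET and WT differed by 0.17 (adjusted p = 0.912). Neither label alone gave a call for SESN2 by edgeR with all libraries.

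The call of SESN2 was close to its limit. Leaving out 1 library at a time gave adjusted p of 0.015 to 0.0858 by edgeR, and it was lost without CF pig 6, 7, 8, 9 or 11, HET pig 14, 20 or 21, or WT pig 12, 16, 17, 18, 22 or 23, with a log2 fold change of 0.77 to 1.02 throughout. It was also lost without CF pig 1, HET pig 20 and WT pig 12 together (0.91, adjusted p = 0.108) and, once adjusted over all genes, by the exact Mann-Whitney U test (unadjusted p = 0.0156, adjusted p = 0.268). The study marked genes by a Mann-Whitney U test at p under 0.05 and names no adjustment for them. An unadjusted p of this size is under 0.05.

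Within the earlier-numbered pigs SESN2 differed by 0.32 (edgeR, adjusted p = 0.658) and within the later-numbered pigs by 1.52 (adjusted p = 0.0024). The test of the difference between those effects gave 1.19 on the log2 scale (SE 0.30, p = 0.000498, adjusted p = 0.14), which did not pass, except without CF pig 1 (adjusted p = 0.0348). Between CF and non-CF over all pigs, 8 of 10 proximal tubule markers were above 0, 2 of them at an unadjusted p under 0.05, and none passed the test, with sums of 8141 to 15163 CPM in CF and 7684 to 13294 CPM in non-CF libraries. In the same comparison 5 of 6 markers of the distal tubule and of Henle's loop were below 0, 3 of them at an unadjusted p under 0.05 and the lowest at -1.40, and none passed, with sums of 1242 to 1922 and 1304 to 2400 CPM. Against WT alone, 9 of 10 proximal tubule markers were above 0 and 1 passed, the water channel AQP1 (0.93, edgeR, adjusted p = 0.0303). In the later-numbered pigs alone, where SESN2 differed most, AQP1 passed higher in CF, and 3 of 6 distal tubule and Henle's loop markers (CALB1, SLC12A1 and SLC12A3) and 2 of 6 collecting duct markers (AQP2 and AQP3) passed lower. In the earlier-numbered pigs none of these markers passed, but no gene at all passed there, so calls cannot compare the series. No marker of the proximal or the distal list was at 0, and the part of these cell types in the level of SESN2 was not tested.

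SESN2 has 3 annotated transcripts. In the spliced transcript, which starts at 85324233 and splices out the intron before its exon 3 (chr6:85327088-85327713), the estimated level was 52.8 ± 30.7 CPM in CF (SD, n = 11) and 24.2 ± 4.28 CPM in non-CF (SD, n = 12). The other transcripts keep that intron, so that their exon 3 runs from 85324646 to 85327713. Starting at 85321982, the first held 7.67 ± 1.88 and 7.25 ± 1.46 CPM, and the second, starting at 85323323, held 2.23 ± 1.53 and 1.16 ± 1.37 CPM. The spliced transcript carried 80.5% of all counts of the gene and had the largest difference of the 3, and its start is the one with the promoter match above. In the later-numbered pigs it measured 47.2 to 119 CPM in CF and 18.8 to 24.3 CPM in non-CF, without overlap. kallisto splits reads among transcripts that share exons, so these are estimates, and they were looked at after the gene's result was known and carry no test.

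**Figure D2:**
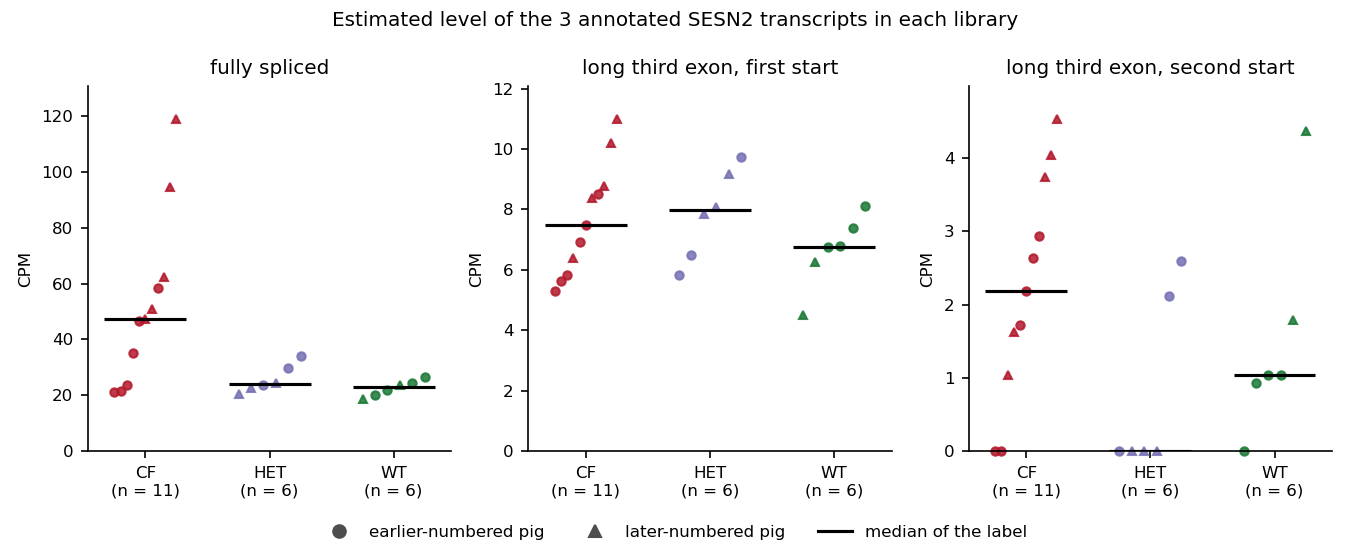
Estimated level in CPM (vertical axes, which differ in scale) of the 3 annotated SESN2 transcripts in each library by label, with the median of each label as a bar. The spliced transcript reaches 119 CPM in CF against 34.1 CPM at most in non-CF libraries, and the transcript from the first start overlaps across labels.

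The other genes of stress sensing and feedback were mostly above 0 without passing the test. Of these 6 genes 5 were above 0, with a median of 0.27, and SESN2 alone passed. DDIT4 (REDD1), an mTORC1 inhibitor, measured 36.1, 45.3 and 70.2 CPM at the lowest, median and highest CF library and 26.9, 36.4 and 51.4 CPM in non-CF. In 10 of 11 CF libraries it lay above the non-CF median, and the groups overlapped between 36.1 and 51.4 CPM. Its difference was 0.33 (SE 0.11, edgeR p = 0.00766, adjusted p = 0.175), with 0.26 in the earlier-numbered and 0.43 in the later-numbered pigs.

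CHAC1, an enzyme that breaks down glutathione and is among the sharpest ATF4 targets, was low in nearly every library. It measured 0.579, 0.986 and 6.27 CPM at the lowest, median and highest CF library and 0.205, 0.828 and 2.72 CPM in non-CF. High values were those of CF pig 1 (6.27 CPM), CF pig 10 (4.84 CPM), CF pig 11 (3.09 CPM), HET pig 13 (2.72 CPM) and WT pig 12 (2.36 CPM), and the other 18 libraries held at most 1.41 CPM. The medians thus differed less than the means of 1.95 and 1.04 CPM did. Its log2 fold change was 0.91 (SE 0.43, edgeR p = 0.0437, adjusted p = 0.348), and 0.54 to 1.14 with 1 library left out.

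PPP1R15A (GADD34), the phosphatase subunit that reverses eIF2 phosphorylation, held 28.5, 36.0 and 75.0 CPM in CF and 23.6, 33.6 and 50.7 CPM in non-CF at the lowest, median and highest library. The 75.0 CPM were those of CF pig 1, which was also the highest in FOS. Its log2 fold change was 0.21 (edgeR, adjusted p = 0.558), and 0.0823 without that library. TRIB3, a pseudokinase that inhibits ATF4, was at 0.11 (adjusted p = 0.808). EIF2AK4, which encodes the kinase GCN2 at the head of the response, was at -0.03 with a 95% interval of -0.15 to 0.10.

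**Figure D3:**
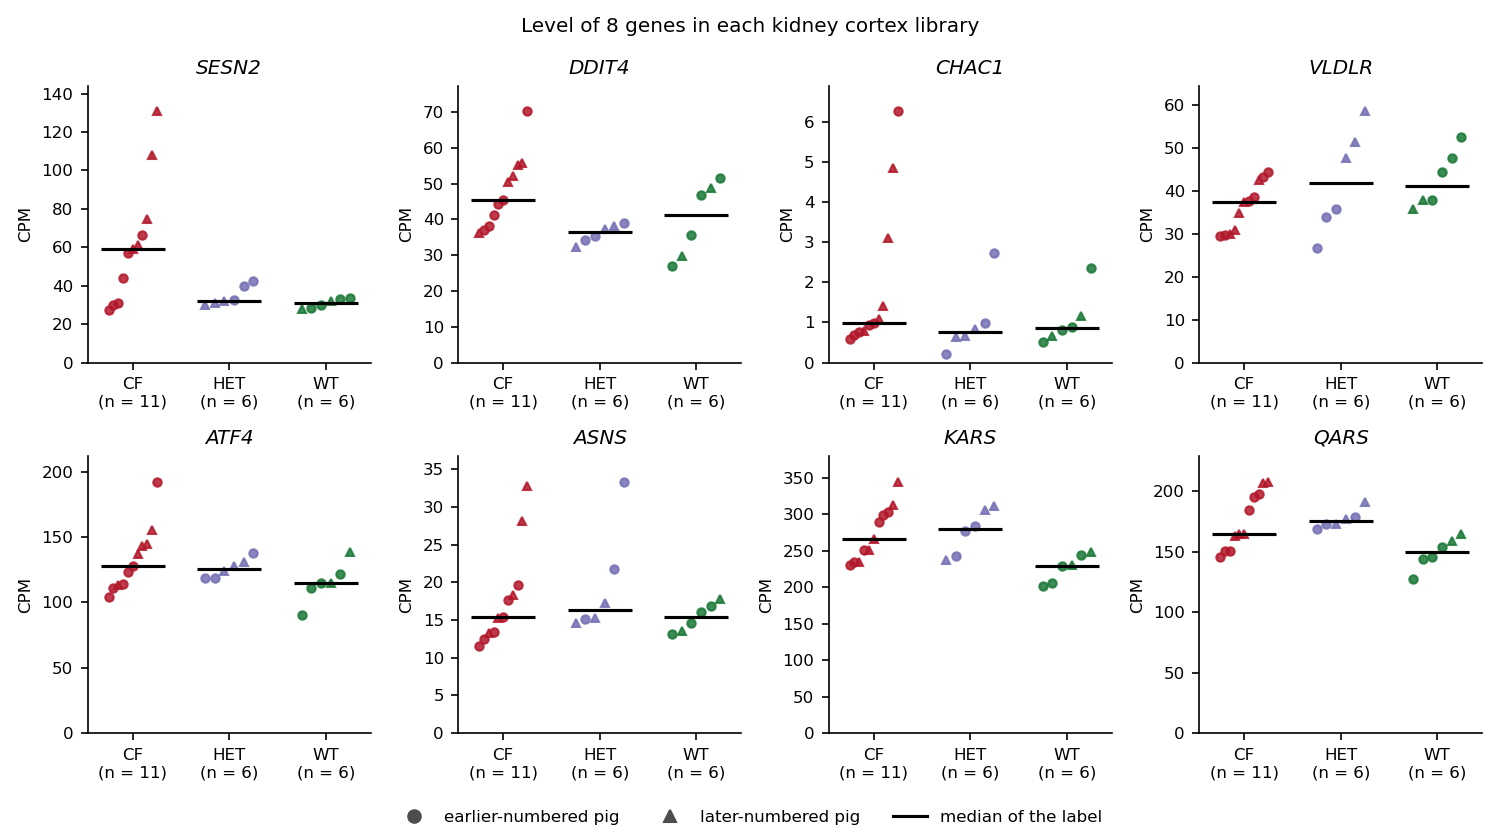
Level in CPM (vertical axes from 0, each gene on its own scale) of 8 of the genes in each library by label, circles for earlier-numbered and triangles for later-numbered pigs, with the median of each label as a bar. SESN2 is above 42.6 CPM, the highest non-CF value, in 8 of 11 CF libraries and within or near the non-CF range in the other 3, and CF and non-CF overlap in all 8 genes.

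ATF4 itself measured 104, 128 and 193 CPM at the lowest, median and highest CF library and 90.5, 120 and 139 CPM in non-CF. Its highest value was that of CF pig 1 and its lowest that of WT pig 12, and the groups overlapped. The log2 fold change was 0.14 (SE 0.09, edgeR, adjusted p = 0.503), with a 95% interval of -0.03 to 0.31, and it was 0.15 in the earlier-numbered and 0.13 in the later-numbered pigs. With 1 library left out it ran from 0.0763, without CF pig 1, to 0.17. All 5 transcription factors were above 0 and none passed the test.

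CEBPB, a C/EBP partner of ATF4, was at 0.36 (SE 0.20, adjusted p = 0.454), with 10.7 CPM in CF pig 1 against at most 5.71 CPM in every other library, and at 0.14 without CF pig 1. It was at 0.60 in the earlier-numbered pigs and at -0.00405 in the later-numbered ones. ATF5, a paralog of ATF4, was at 0.13, CEBPG, another partner, at 0.09, and DDIT3 (CHOP), a later effector of prolonged stress, at 0.07. Without CF pig 1, HET pig 20 and WT pig 12, DDIT3 was at -0.14. ATF5 and DDIT3 lie over other annotated genes (NUP62 and IL4I1, and MARS), and how kallisto was set for strand is not given in the sources used here, so their levels are uncertain, as are those of EIF2AK4, MTHFD2, MARS, TARS and FARSB, which overlap other genes too.

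Genes of amino acid synthesis, the mitochondrial folate cycle and cystine import were split, 3 above and 3 below 0, and none passed the test. ASNS, asparagine synthetase, held 11.6, 15.4 and 32.7 CPM at the lowest, median and highest CF library and 13.1, 15.7 and 33.4 CPM in non-CF. The highest libraries were HET pig 13 (33.4 CPM), CF pig 11 (32.7 CPM) and CF pig 10 (28.1 CPM), which were also among the 5 highest in CHAC1. Its log2 fold change was 0.04 (SE 0.17, adjusted p = 0.955).

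The serine pathway runs from PHGDH through PSAT1 to PSPH, and the log2 fold changes were 0.12, 0.01 and -0.25 (SE 0.14, 0.15 and 0.15). PSAT1 had the widest range of these in CF, 42.4 to 133 CPM, against 68.4 to 124 CPM in non-CF. MTHFD2, a mitochondrial folate enzyme, was at -0.12 (adjusted p = 0.606), and all 11 CF libraries lay under its non-CF median of 41.8 CPM, though still within the non-CF range of 28.1 to 49.6 CPM. SLC7A11, the cystine importer xCT, ranged from 5.12 to 27.2 CPM in CF and from 6.25 to 41.8 CPM in non-CF, so that its log2 fold change of -0.25 had an interval of -0.93 to 0.44.

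Of the secreted factors and the receptor, none passed the test. FGF21, a hormone of nutrient stress, was near the detection limit, with 0 to 0.346 CPM in CF and 0.0492 to 0.475 CPM in non-CF, and CF pig 7 and HET pig 19 held 0 and 2 counts. A limit of 3 counts is 0.0567 to 0.0912 CPM by library. GDF15, a stress hormone, measured 0.595, 1.78 and 6.10 CPM in CF and 0.772, 1.75 and 4.03 CPM in non-CF at the lowest, median and highest library (log2 fold change 0.22, SE 0.30), and was at -0.03 without CF pig 1.

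STC2, a secreted glycoprotein, was at 0.31 (SE 0.15, edgeR p = 0.0553, adjusted p = 0.38), with 0.07 in the earlier-numbered and 0.65 in the later-numbered pigs. VLDLR, a lipoprotein receptor that ATF4 induces in liver, measured 29.4, 37.3 and 44.4 CPM in CF and 26.6, 41.1 and 58.5 CPM in non-CF at the lowest, median and highest library. The CF range lay inside the non-CF range, and the difference was -0.23 (SE 0.11, edgeR p = 0.0491, adjusted p = 0.362).

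The cytosolic tRNA synthetases, which load amino acids onto tRNAs, changed little. None of the 20 passed the test or had an unadjusted p under 0.05. Log2 fold changes ran from -0.17 (FARSA and FARSB, the subunits of phenylalanyl-tRNA synthetase) to 0.13 (KARS, for lysine), with a median of -0.04 and 15 of 20 below 0. For each, the 95% interval lay within 0.5 of 0. The widest was that of VARS (valine), -0.36 to 0.08. Over all genes the interval lay within 0.5 for 16213 of 20921. Levels of the synthetases overlapped between the groups throughout. AARS (alanine) measured 154, 198 and 246 CPM at the lowest, median and highest CF library and 144, 199 and 241 CPM in non-CF. IARS (isoleucine) measured 147, 168 and 229 CPM in CF and 134, 180 and 220 CPM in non-CF. FARSB, the one nearest to a difference (edgeR p = 0.0886, adjusted p = 0.451), measured 30.9, 41.3 and 48.0 CPM in CF and 29.0, 47.5 and 58.6 CPM in non-CF, and 10 of 11 CF libraries lay under the non-CF median. FARSA, the other subunit of that enzyme, had 9 of 11 under it and measured 38.0, 49.4 and 63.6 against 40.5, 58.7 and 67.4 CPM.

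Enzymes for methionine (MARS, -0.13), valine (VARS, -0.14), histidine (HARS, -0.11), aspartate (DARS, -0.08), arginine (RARS, -0.07) and leucine (LARS, -0.05) lay a little below 0, as did EPRS, which serves glutamate and proline (-0.08). Those for lysine (KARS, 0.13) and glutamine (QARS, 0.11) were the highest, with 8 and 5 of 11 CF libraries above the non-CF median. Glycine (GARS, -0.01), serine (SARS, -0.00441), tryptophan (WARS, -0.02) and isoleucine (IARS, 0.02) were at or near 0. The 4 synthetases with a promoter match, AARS, CARS, TARS and YARS, were at -0.00441, 0.04, -0.03 and 0.05.

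Synthetases varied little between libraries and ranged widely in abundance. Their coefficient of variation over the 23 libraries was 10.9% to 19.7%, against 8.52% to 101% for the other 21 genes, of which CHAC1 was the most variable with a 30.6-fold range. By TPM, which is scaled for transcript length and so allows levels of different genes to be compared, KARS was the highest of the 41 at 140 ± 14.6 (SD, n = 23), followed by QARS (glutamine) at 76.5 ± 7.91 and ATF4 at 74.7 ± 11.6. The latter pair differ by less than either SD. The 20 synthetases ran down to CARS at 7.92 ± 1.15, with a median of 28.9 TPM. FGF21 (0.433 ± 0.21), CHAC1 (1.06 ± 1.02) and TRIB3 (1.11 ± 0.328) were the lowest.

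Libraries differed in the level of the synthetases as a group. For each library the median over the 20 of each gene's deviation from its own mean was taken, on the log2(CPM + 0.5) scale. It was lowest in WT pig 12 (-0.38), CF pig 3 (-0.33) and HET pig 15 (-0.30). It was highest in WT pig 22 (0.31), CF pig 11 (0.22) and HET pig 20 (0.20). Each label thus had a library at both ends. By series it was 0.07 to 0.31 in the later-numbered and -0.38 to 0.09 in the earlier-numbered non-CF pigs. In CF pigs the series overlapped widely, at -0.18 to 0.22 in the later-numbered and -0.33 to 0.10 in the earlier-numbered ones. Among all 41 genes, WT pig 12 was the lowest library for 15 and WT pig 22 the highest for 10. CF pig 1 was the highest for 8, among them ATF4, CEBPB, DDIT3, PPP1R15A and DDIT4.

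**Figure D4:**
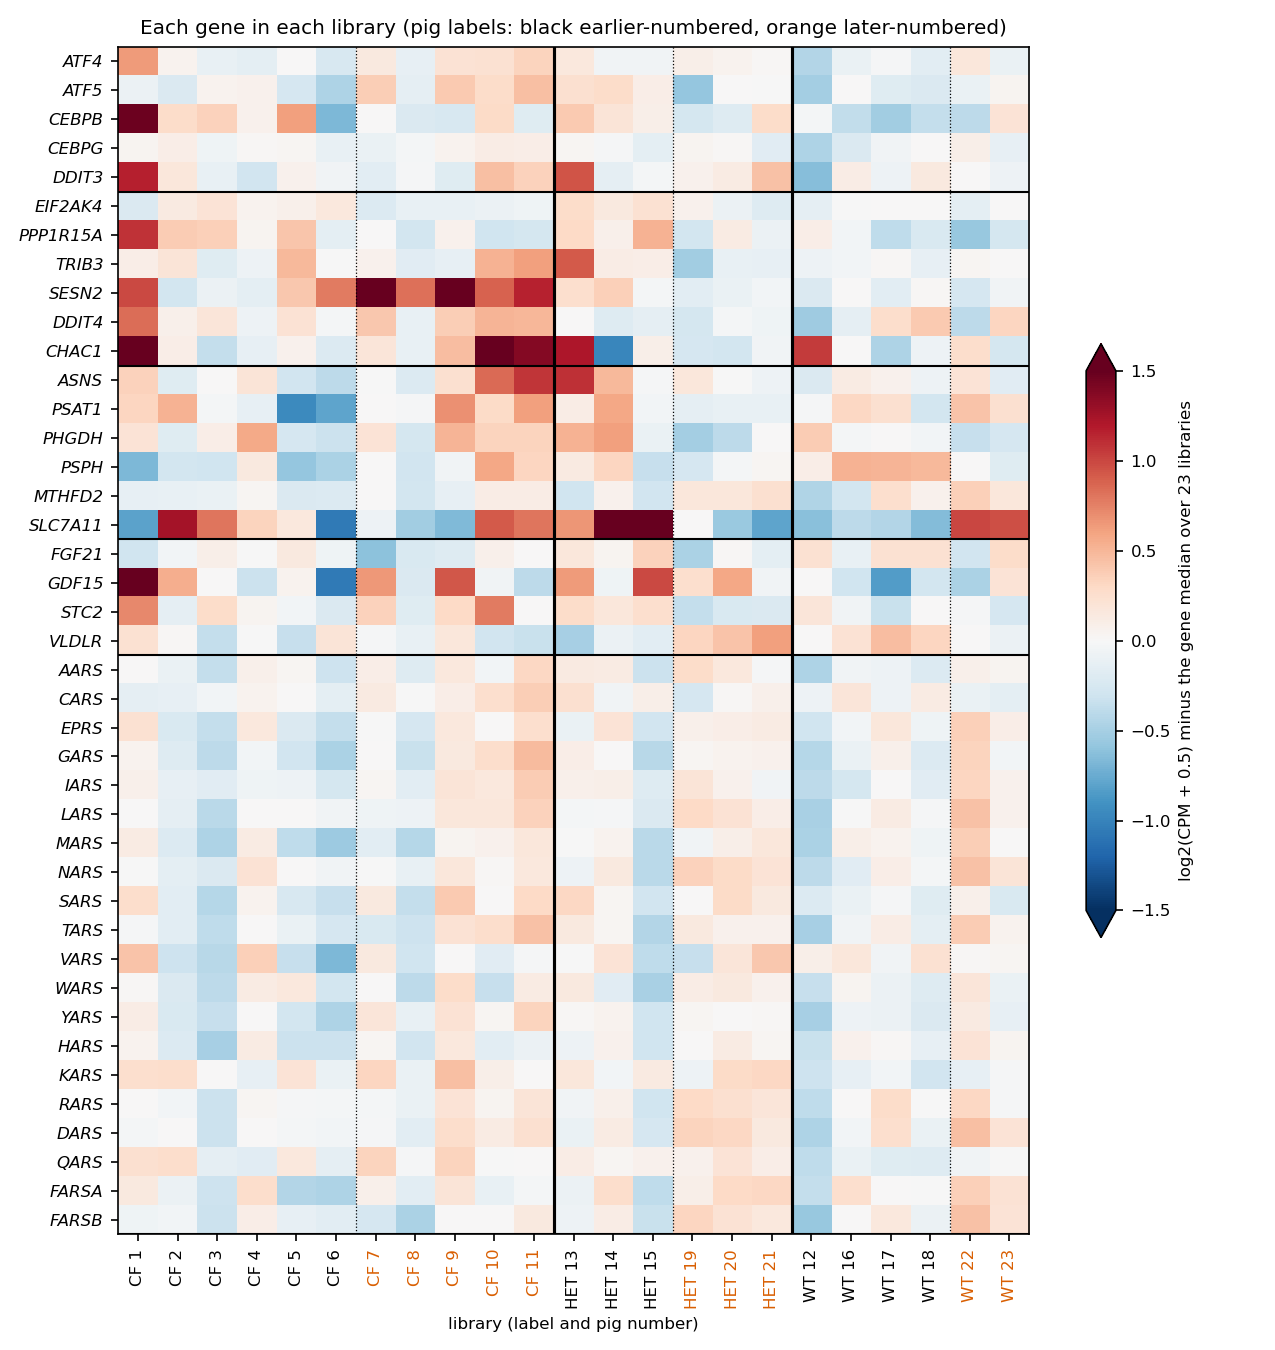
Level of each of the 41 genes (rows, grouped by role) in each of the 23 libraries (columns, by label and number series) as log2(CPM + 0.5) minus the gene's median over all libraries. Most tRNA synthetases are low in WT pig 12 and high in WT pig 22, with medians of -0.38 and 0.31 when measured from each gene's mean instead. SESN2 is at 59.0 CPM or above in the 5 later-numbered CF pigs and in CF pig 1.

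Compared label by label, none of the 41 genes passed the test. Against WT alone, 0 of 41 passed (0.336% of 21434 genes did) and 6 stood at an unadjusted p under 0.05 (14% of all genes, 7.55% higher and 6.41% lower). Those were SESN2, CEBPB (0.56), PPP1R15A (0.40), KARS and QARS higher in CF and PSPH lower (-0.39). KARS measured 202 to 249 CPM in WT, 238 to 311 CPM in HET and 230 to 345 CPM in CF, so that WT had the lowest range but all 3 labels overlapped. QARS measured 127 to 165 CPM in WT, 168 to 191 CPM in HET and 146 to 208 CPM in CF, and WT and HET did not overlap. QARS was the 1 gene of the 41 without overlap between HET and WT, as were 0.69% of all genes.

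CF differed from WT by 0.27 in KARS and 0.24 in QARS (edgeR, adjusted p = 0.152 and 0.177), and HET differed from WT by 0.29 and 0.25 (adjusted p = 0.541 and 0.548). These comparisons share the WT libraries. Between HET and WT 0 of 41 passed (0.00467% of all genes, the gene being CFTR), and KARS, QARS and GDF15 (0.86) were higher in HET at an unadjusted p under 0.05, against 8% of all genes (4.13% higher, 3.87% lower). Between CF and HET 0 of 41 and 0% of all genes passed by edgeR, and SESN2 and DDIT4 (0.41) were higher in CF at an unadjusted p under 0.05, against 9.83% of all genes (5.55% higher, 4.28% lower). DESeq2 called 56 genes between CF and HET, none of them among the 41.

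The CF difference in the earlier-numbered pigs was compared with that in the later-numbered pigs, and the test of it passed for 0 of the 41 genes (0.0191% of all genes passed, 0.00478% with a higher and 0.0143% with a lower value in the later-numbered pigs). At an unadjusted p under 0.05 stood 8 of 41 (19.5%), against 10.1% of all genes, 4.49% higher and 5.65% lower. In ATF5, SESN2, ASNS, PHGDH, PSPH and CARS (cysteine) the CF value was relatively higher in the later-numbered pigs, and in NARS (asparagine) and FARSB relatively lower. PHGDH, for example, differed by -0.17 in the earlier and 0.55 in the later series (difference 0.71, SE 0.23, edgeR p = 0.00532, adjusted p = 0.262), and PSPH by -0.65 and 0.25 (difference 0.90, SE 0.25, p = 0.00132, adjusted p = 0.174). PSPH measured 3.55 to 6.63 CPM in earlier-numbered CF pigs and 4.60 to 8.76 CPM in their non-CF counterparts, against 4.79 to 9.13 and 4.94 to 6.10 CPM in the later-numbered ones.

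Within the later-numbered pigs alone, CF and non-CF did not overlap in 4 of the 41 genes, SESN2 higher and MTHFD2, NARS and FARSB lower in CF, against 4.64% of all genes. In the earlier-numbered pigs no gene of the 41 was without overlap (0.631% of all genes), and over all pigs none was (0.00478%). NARS held 117 to 142 CPM in the 5 later-numbered CF pigs and 144 to 172 CPM in the 5 non-CF pigs, and FARSB 30.9 to 48.0 and 48.3 to 58.6 CPM. MTHFD2 held 31.8 to 41.6 and 43.3 to 49.6 CPM. NARS and FARSB are both tRNA synthetases, and of the 4 genes only SESN2 passed the test in the later series alone.

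**Figure D5:**
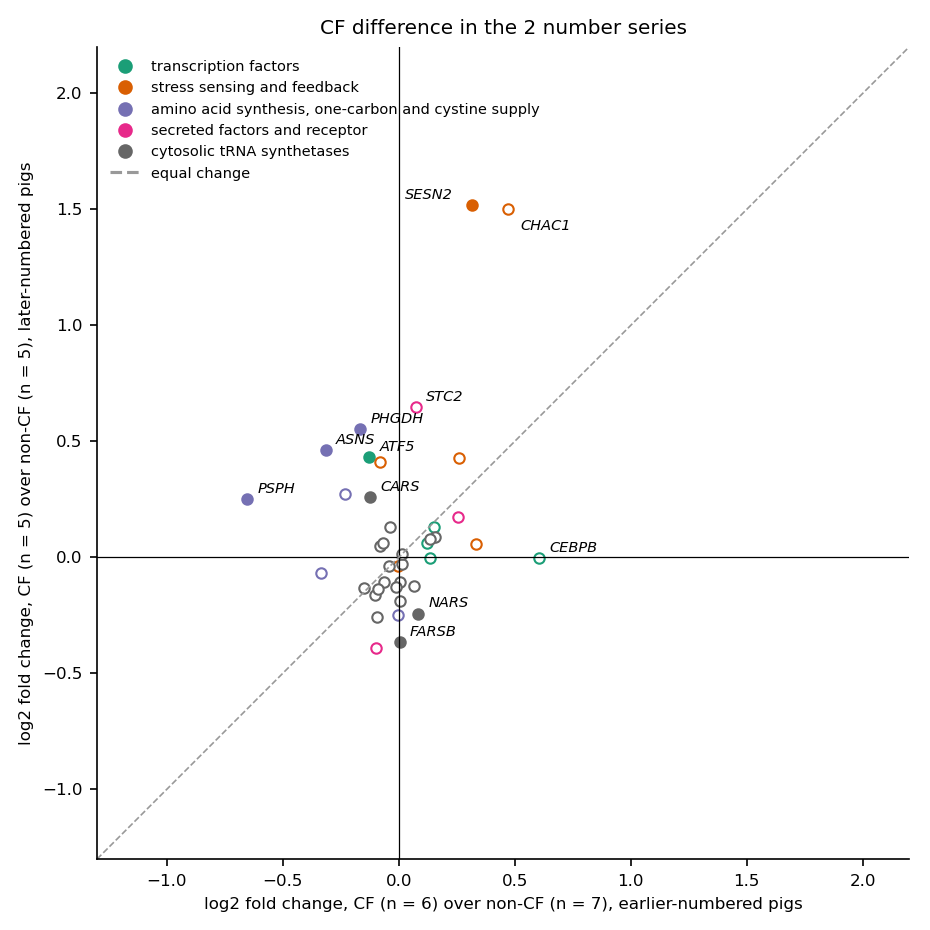
Log2 fold change of CF over non-CF in the earlier-numbered pigs (horizontal axis) against that in the later-numbered pigs (vertical axis) for 40 of the 41 genes, FGF21 not being fitted in the later series. Filled points had an unadjusted p under 0.05 in the test of the difference between the series, and SESN2 sits at 0.32 and 1.52.

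Other genes of the same pathway were taken as lists. Of 28 other genes linked to ATF4, 1 passed between CF and non-CF, 17 were above 0, and the median was 0.05. KLHL24, a ubiquitin ligase adaptor, measured 182, 226 and 278 CPM at the lowest, median and highest CF library and 125, 167 and 213 CPM in non-CF. Its groups overlapped only between 182 and 213 CPM, and the difference was 0.51 (SE 0.08, edgeR, adjusted p = 0.00988). KLHL24 was not called in either number series alone, and in the earlier one no gene was. MAP1LC3B, an autophagy protein, was called against WT alone (0.38, adjusted p = 0.0398). Chosen after their values were seen, the entry named SLC7A5, after the leucine importer, was at 0.89 (edgeR, adjusted p = 0.0567). CBS, of the transsulfuration pathway, was at 0.46 (edgeR, adjusted p = 0.0945), and neither passed over all pigs. In the later-numbered pigs alone 3 of the 28 passed, SLC7A5 and CBS higher and SLC1A5 lower in CF. More of all genes passed there than over all pigs.

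SLC7A5 is annotated as 1 transcript of the biotype lncRNA, so its level is not that of an annotated coding transcript. It measured 31.9, 80.3 and 140 CPM at the lowest, median and highest CF library against 32.1, 45.6 and 58.0 CPM in non-CF. In the later-numbered pigs, where it was called, it measured 80.3 to 140 CPM in CF and 33.9 to 48.1 CPM in non-CF. The groups did not overlap there, as in 4.64% of all genes. Its effect differed by 1.15 between the series (edgeR p = 0.00151, adjusted p = 0.183), which did not pass. Among 15 eIF2 kinases and other parts of the eIF2 machinery none passed, with all 15 intervals within 0.5 of 0. Among them PPP1R15B, the constitutive partner of the eIF2 phosphatase, was at 0.19 (SE 0.06, p = 0.00189, adjusted p = 0.102).

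The mitochondrial tRNA synthetases, which are not held to be ATF4 targets as a class, gave the nearest comparison for the cytosolic ones. Of 16 in the annotation none passed, 11 were below 0, the median was -0.08, and all 16 intervals lay within 0.5 of 0. AARS2, for alanine, and FARS2, for phenylalanine, both at -0.17, were among those with an unadjusted p under 0.05. The 3 scaffold proteins of the multisynthetase complex, AIMP1, AIMP2 and EEF1E1, lay between -0.23 and -0.01, and none passed.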

How the data were processed

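RNA-Seq of kidney cortex from 23 newborn pigs was analysed. The authors pseudoaligned reads of a stranded total-RNA library to RefSeq transcripts of Sscrofa11.1 with kallisto and deposited, per library, an estimated count and a TPM value for each of 77689 transcripts. The deposited estimated counts are not normalized, and 63% were not whole (tolerance 1e-06), while the deposited TPM values are scaled for transcript length and library. Counts were summed to 26687 gene symbols and rounded, and TPM was summed likewise. The 41 genes and all lists were chosen with earlier results of these data known, and every one of the 41 may be named. Of each other list, genes were named when called, and otherwise up to 3 with the smallest p. The groups are the genotype labels. Replicates are separate pigs, so p-values measure the spread between pigs.

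CF was compared with non-CF, and the 3 labels with each other in 1 fit, in edgeR 4.0.16 on R 4.3.3 (TMM, filterByExpr, quasi-likelihood test, Benjamini-Hochberg over all genes tested, adjusted p limit 0.05). CPM uses TMM-scaled library sizes, and intervals are 1.96 SE each side. A difference between number series was tested as an interaction. Alternatives were DESeq2 1.42.0, the exact Mann-Whitney U test with a pseudocount of 0.5, RLE and upper-quartile normalization, no filter, at least 1 CPM in 11 libraries, the number series as a term, each series alone, each library left out and, chosen after seeing the data, CF pig 1, HET pig 20 and WT pig 12 left out together. On simulated data for CF against non-CF over 20921 genes, edgeR recovered 83 of 100 genes changed 1.5-fold and 100 of 100 changed 3-fold, with 5.18% false calls (DESeq2, 10%). For the interaction it recovered 11 and 92 of 100. The floor of 3 counts covers counting error only. Promoter windows were read with pysam 0.24.0 from the genome of the same build, and transcript coordinates from its annotation. HARS2 and NR4A1 were listed but are not in the annotation used. 7 of the 41 genes overlap another annotated gene (ATF5, DDIT3, EIF2AK4, MTHFD2, MARS, TARS and FARSB). Protein sequences were not used here. A mitochondrial synthetase that the naming rule would name is not reported here by name.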

Additional observations from a re-analysis of the deposited data

Results flagged for a closer look

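In 8 of 82 groups of 6 pigs (the 41 genes in HET and in WT), 1 pig lay far from the other 5 of its label by Dixon's test, which flags about 1 group in 20 by chance. HET pig 15 was the lowest in 3 tRNA synthetases, GARS (55.6 CPM, others 74.3 to 79.4), TARS (62.7 CPM, others 87.4 to 94.7) and YARS (45.6 CPM, others 56.3 to 58.6). HET pig 13 was the highest in TRIB3 (6.04 CPM, others 1.89 to 3.23) and in CHAC1 (2.72 CPM, others 0.205 to 0.976). WT pig 12 was the highest in CHAC1 (2.36 CPM, others 0.507 to 1.16) and the lowest in DDIT3 (4.53 CPM, others 6.93 to 8.22). HET pig 14 was the highest in PSAT1 (124 CPM, others 75.5 to 89.0). The CF group of 11 pigs was not tested in this way.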

How the results depend on the processing

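The study compared littermate pairs in its metabolite measurements, but the labels here name no litter, so no paired analysis was possible. Every pig number occurs once and no 2 groups share one. Any litters shared between pigs were therefore not accounted for in the tests. Between CF and non-CF, 1 of the 41 genes was called, SESN2, and 0 in the earlier-numbered pigs alone (0.32, adjusted p = 0.658), 0 without CF pig 1, HET pig 20 and WT pig 12 (0.91, adjusted p = 0.108), 0 by the exact Mann-Whitney U test (0.94, adjusted p = 0.268) and 0 to 1 with 1 library left out. By DESeq2 its adjusted p was 0.0056. On simulated data for this comparison DESeq2 gave 10% false calls and edgeR 5.18%. Those data were drawn from edgeR's own estimates of spread, without number series, so they do not rank the tests for SESN2. Against WT, 1 was called by DESeq2 (SESN2, 1.03, adjusted p = 0.0159), 1 in the later-numbered pigs (SESN2, 1.56, adjusted p = 0.0454) and 0 to 1 with 1 library left out. Against HET, 2 were called in the later-numbered pigs (SESN2, 1.49, edgeR adjusted p = 0.00891, and VLDLR, lower). The later-numbered pigs include only 2 WT and 3 HET pigs, so these calls by label rest on few libraries. In the test between series, 0 to 1 were called with 1 library left out (SESN2, without CF pig 1). The cause of these changes was not tested.

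Of all genes, 73 were called between CF and non-CF (51 higher, 22 lower), with upper-quartile normalization 101 (48 higher, 53 lower), by DESeq2 488, with at least 1 CPM 117, with the series term 148, in the earlier-numbered pigs 0, in the later-numbered 473, without the 3 libraries 4, by Mann-Whitney 46, and with 1 library left out 17 to 203. Against WT 72 were called, and 573 by DESeq2, 139 with upper-quartile normalization, 134 with at least 1 CPM, 172 with the series term, 7 in the earlier-numbered pigs, 18 without the 3 libraries, 0 by Mann-Whitney, and 20 to 187 with 1 library left out. Against HET 0 were called by edgeR (9.83% at an unadjusted p under 0.05), and 56 by DESeq2, 4 with upper-quartile normalization, 1 with no filter, 1 with at least 1 CPM, 4 with the series term, 525 in the later-numbered pigs, and 0 to 3 with 1 library left out. Between HET and WT 1 was called, and 32 by DESeq2, 17 in each series alone, 0 by Mann-Whitney, and 1 to 3 with 1 library left out. Between series 4 were called, and 15 with upper-quartile normalization, 15 with at least 1 CPM, 19 without the 3 libraries, and 1 to 91 with 1 library left out.

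Of the 41 genes, 20 kept the sign of their difference between CF and non-CF in each of the 33 alternatives that tested them (32 for CHAC1 and 31 for FGF21) and 21 did not, and none of the 21 was called. In the earlier-numbered pigs alone the sign turned for ATF5 (-0.13), TRIB3 (-0.0818), ASNS (-0.31), PSAT1 (-0.23), PHGDH (-0.17), AARS (0.0126), CARS (-0.13), LARS (0.0044), NARS (0.0836), WARS (0.0653), YARS (-0.0385), DARS (0.0077) and FARSB (0.0042). In the later-numbered pigs alone it turned for CEBPB (-0.0040), DDIT3 (-0.0023), PSPH (0.25, and 0.27 against WT), GARS (0.0501) and SARS (0.0623). Without the 3 libraries it turned for DDIT3 (-0.14), ASNS (-0.0232), PSAT1 (-0.0487) and IARS (-0.0114), and PSAT1 was at -0.0174 with upper-quartile normalization and at -0.0159 with the series term. With 1 library left out, the range crossed 0 for DDIT3 (-0.0826 to 0.19), ASNS (-0.0842 to 0.17), PSAT1 (-0.0643 to 0.0797), GDF15 (-0.0281 to 0.35), AARS (-0.0441 to 0.0254), GARS (-0.0785 to 0.0264), IARS (-0.0255 to 0.0538), SARS (-0.0517 to 0.0275), TARS (-0.0924 to 0.0054) and WARS (-0.0619 to 0.0033). DESeq2, the Mann-Whitney test and the series term were not run for the test between series. With 3 counts as the limit, levels under 0.0912 CPM were not resolved, which touches FGF21.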

Other observations

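Endoplasmic reticulum chaperones, which are induced by the unfolded protein response, a neighbour of the ATF4 response, lay mostly lower in CF. Of 13, none passed edgeR's test between CF and non-CF, 7 had an unadjusted p under 0.05 (13.7% of all genes did), and 10 were below 0, with a median log2 fold change of -0.24. Without CF pig 1 the median was -0.33 and PDIA6 passed, lower in CF. In the later-numbered pigs alone the median was -0.31 and HSP90B1 passed, lower in CF. The 3 with the smallest p were PDIA6, a disulfide isomerase (102 ± 16.4 CPM in CF, SD, n = 11, and 125 ± 15.9 CPM in non-CF, SD, n = 12, log2 fold change -0.30, adjusted p = 0.0986), DNAJB9, an HSPA5 cochaperone, which was higher (0.31, adjusted p = 0.108), and CRELD2, a secreted chaperone (-0.52, adjusted p = 0.126). Their summed level was 1907 to 4160 CPM in CF and 2116 to 3807 CPM in non-CF libraries.

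Immediate early genes, which respond within minutes to injury and handling, were uneven. Of 11 in the annotation none passed edgeR's test between CF and non-CF, 10 were above 0, and the median was 0.44. Without CF pig 1 the direction turned, with 4 above 0, 7 below and a median of -0.17. The median was 0.74 in the earlier-numbered pigs, which include CF pig 1, and -0.10 in the later-numbered ones, and the difference between series was below 0 in 11 of 11 genes, of which none passed. Their sums ran from 126 to 1836 CPM in CF and from 123 to 763 CPM in non-CF, the highest values being those of CF pig 1 and WT pig 12. The 3 with the smallest p were JUN (1.09, adjusted p = 0.237), JUNB (1.08, adjusted p = 0.277) and ZFP36, which encodes an RNA-binding protein (0.74, adjusted p = 0.397).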
